A study of Arabidopsis with 6 samples.

Results

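The first 0.5 h of light after darkness was described in wild-type (WT) Arabidopsis seedlings by comparing 2 RNA sequencing libraries, WT after 0.5 h of light and WT at 0 h, out of 6 in the series. Genes were joined by locus identifier, and those with a value of at least 1 FPKM in either library were compared, 17748 of the 19763 listed. FPKM, a read count scaled for transcript length and library size, is the unit the values were read as. Both groups were grown on MS medium with 0.7% agar at 22 °C in darkness for 4 days, and the light was 120 µmol per square metre per second. The 4 other libraries, WT after 2 h of light and the PCD8 RNAi-21 line (RNA interference directed at PCD8) at 0, 0.5 and 2 h, are given beside these values. Each group held 1 library, so no value has a replicate error, no test was possible and all comparisons are of size. A dark control taken 0.5 h later was not part of these samples, so light and elapsed time cannot be told apart. The labels name neither an accession of Arabidopsis nor the number of seedlings pooled. They give the tissue as leaf. PYK10, an endoplasmic reticulum body glucosidase kept in the root marker list, stood at 3478 FPKM at 0.5 h and 3968 FPKM at 0 h. Of 16 listed root markers 14 were compared, a share near that of all listed genes (17748 of 19763). Whether roots were part of the samples was not tested.

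A seedling that grows in darkness elongates its hypocotyl, keeps its apical hook closed and holds greening back. Light is read by phytochromes, cryptochromes and phototropins. Phytochromes and cryptochromes act against PIF transcription factors and restrain the COP1/SPA ubiquitin ligase, so that factors such as HY5 accumulate. Growth genes that PIFs and auxin keep on in darkness are then shut down, while clock, greening and protective genes are switched on. Immediate transcription factor genes are known to move first, and the photosynthetic apparatus follows later.

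Differences are given as log2(FPKM + 1) at 0.5 h minus the same at 0 h, and 2-fold means a difference of at least 1 on this scale, on which differences of weakly expressed genes come out too small. By this measure 151 genes (0.851% of those compared) were higher at 0.5 h and 202 (1.14%) were lower. Counts of list members below are to be read beside these shares. The median difference over all genes compared was 0.01, and 90% of genes lay between -0.51 and 0.46. Scatter depended on level: the middle 50% of differences spanned 0.38 where the mean over the 6 libraries was below 5 FPKM, and 0.22 where it was 100 FPKM or more. Of 20 reference genes often taken as stable, none was 2-fold different and their differences ran from -0.24 to 0.31. Of 24 cytosolic ribosomal protein genes, none was 2-fold different either, with a range of -0.25 to 0.15.

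**Figure D1:**
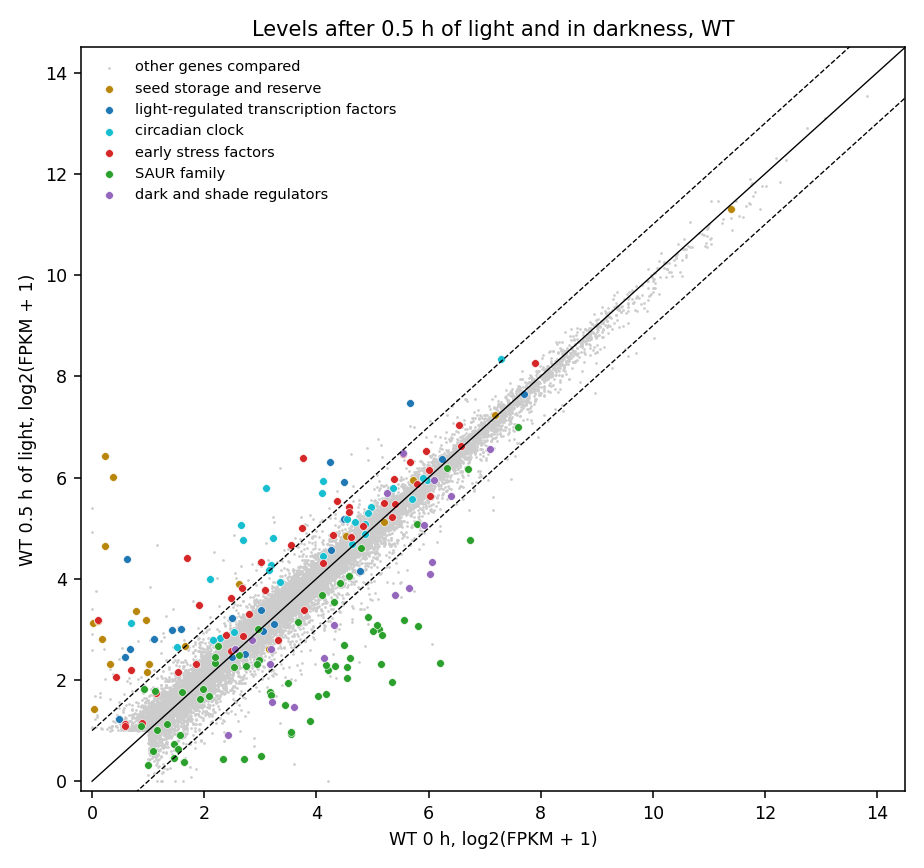
Level at 0.5 h of light (vertical axis) against level at 0 h (horizontal axis) in WT, both in log2(FPKM + 1), 1 point per gene compared, with 6 gene lists coloured. The solid line marks equal levels and the dashed lines 2-fold; the seed storage genes CRU3 (84.7 FPKM at 0.5 h, 0.17 at 0 h) and CRA1 lie farthest above, and most SAUR genes lie below.

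Transcription factors of the light response were among the genes that were higher after 0.5 h. Of 22 compared, 9 were at least 2-fold higher, against 0.851% of all genes compared, and none lower. The median difference was 0.74, and 16 lay above 0. BBX30, a small B-box protein, stood at 20.1 FPKM at 0.5 h and 0.55 FPKM at 0 h, a difference of 3.77. HY5, the bZIP factor at the centre of seedling greening, stood at 78.0 FPKM at 0.5 h against 18.0 FPKM at 0 h (2.05). Its B-box partners and antagonists accompanied it. BBX24 stood at 177 FPKM against 50.2 FPKM in darkness (1.80), BBX25 at 6.04 against 1.16 (1.70), BBX31 at 5.08 against 0.59 (1.94) and BBX32 at 4.51 against 0.51 (1.87). The other 3 past 2-fold, outside the 6 with the largest differences, were SIG5, a sigma factor of the plastid RNA polymerase, BBX29, and GLK2, a regulator of chloroplast genes, at 1.57, 1.43 and 1.43. BBX20 differed most in the other direction, at -0.62, and was named after its value was seen. At 2 h the WT library held 82.7 FPKM of BBX30, 181 of HY5 and 680 of BBX24.

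Clock genes formed the second group of transcripts that were higher. Of 28 compared, 12 were at least 2-fold higher, against 0.851% of all genes compared, and none lower. Of the 28, 26 lay above 0 and the median was 0.60. LNK3 (AT3G12320), a member of a family of light-inducible clock coactivators, stood at 54.7 FPKM at 0.5 h and 7.62 FPKM at 0 h (2.69). Its relative LNK1 stood at 14.9 FPKM against 3.28 FPKM (1.90). Among pseudo-response regulators, repressors that act in sequence through the day, PRR9 stood at 7.78 against 0.63 FPKM (2.43) and PRR5 at 26.3 against 5.44 FPKM (2.08). CDF3, a DOF factor of flowering time and stress, stood at 32.4 against 5.30 FPKM (2.41), and ELF4, a part of the evening complex, at 60.3 against 16.4 FPKM (1.82). The morning gene CCA1, named after its value was seen, differed by 1.58, while its close relative LHY differed by 0.22. At 2 h, LNK3, PRR5 and CDF3 stood at 34.9, 23.4 and 30.5 FPKM, and PRR9, LNK1 and ELF4 at 32.0, 72.2 and 201 FPKM.

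No photoreceptor gene was 2-fold different, and some of their partners were. Over all genes compared, 0.851% were higher and 1.14% lower. Of 29 photoreceptor and partner genes, 4 were 2-fold higher and 1 was 2-fold lower, with a median of 0.16. Those higher were RPT2, which acts with phototropins in phototropism (108 FPKM at 0.5 h, 33.4 FPKM at 0 h, 1.66), the COP1 partner SPA1 (18.7 against 6.21 FPKM, 1.45), the phytochrome partner PKS1 (19.8 against 7.79 FPKM, 1.24) and RUP1, a repressor of the UV-B receptor (41.3 against 17.8 FPKM, 1.17). PKS4, from the same family as PKS1, was the one lower, at 2.99 against 11.2 FPKM (-1.62). PKS2 differed by -0.73. Outside the rule for named genes, PHYA differed by 0.11, PHYB by 0.11, CRY1 by 0.03, CRY2 by 0.16 and PHOT1 by 0.06, inside the range of the reference genes. PHYC and CRY3 differed by 0.50 and 0.45, beyond that range.

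Early stress transcription factors were the third such group. Of 44 compared, 12 were 2-fold higher, against 0.851% of all genes compared, and none lower. Of the 44, 40 lay above 0 and the median was 0.56. The cold and drought regulators of the DREB family led them. CBF3 (DREB1A) stood at 8.09 FPKM at 0.5 h and 0.08 FPKM at 0 h (3.08), CBF2 at 20.3 against 2.22 FPKM (2.73) and CBF1 at 3.18 against 0.34 FPKM (1.65), 3 genes that lie beside one another. DREB2A, which acts in drought and heat, stood at 82.4 against 12.6 FPKM (2.62), its relative DREB2B at 10.1 against 2.77 FPKM (1.56), and the ethylene response factor ERF11 at 3.58 against 0.62 FPKM (1.5). At 2 h, CBF3, CBF2 and CBF1 stood at 4.23, 6.03 and 1.84 FPKM, below their 0.5 h values and above those at 0 h, and DREB2A stood at 157 FPKM. Genes of calcium signalling and touch had a median of 0.02 with none of 14 past 2-fold. For singlet oxygen and oxidative stress markers the median was 0.10, and 1 of 16 was past 2-fold: SIB1, a sigma factor binding protein, at 1.35 against 0.04 FPKM (1.18).

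Heat shock factor and chaperone genes were also among those higher. Among 18 heat shock factors, 3 were 2-fold higher and none lower, with a median of 0.31, or 0.57 over the 15 that reached 5 FPKM. HSFA6B stood at 24.2 FPKM at 0.5 h against 1.24 FPKM at 0 h (3.5), HSFA2 at 8.62 against 1.49 FPKM (1.95) and HSFB2B at 13.8 against 5.51 FPKM (1.18). Among 21 large chaperones and their partners, 20 lay above 0 and the median was 0.52. Of them 5 were 2-fold higher, against 0.851% of all genes compared. These were the coactivator MBF1C (95.4 against 28.9 FPKM, 1.69), the disaggregase HSP101 (25.1 against 7.56 FPKM, 1.61), HSP70 (AT3G12580, 129 against 49.9 FPKM, 1.35), the cochaperone HOP3 (17.1 against 6.57 FPKM, 1.25) and ROF2, a peptidyl-prolyl isomerase (5.25 against 1.71 FPKM, 1.2). Only 4 small heat shock protein genes could be matched by name and compared. Family members without a symbol in the name table were not counted, so the values do not describe the whole family. None of these 4 was past 2-fold, and their median of 0.10 turned to -0.29 when a filter of 5 FPKM left HSP17.6A alone. Their summed level was 22.2 FPKM at 0.5 h against 24.0 FPKM at 0 h, and the sum at 2 h was 340 FPKM.

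Abscisic acid genes had a median of 0.37, with 3 of 29 at least 2-fold higher, against 0.851% of all genes compared. The phosphatases AHG3 and ABI1, which hold this hormone's signalling back, stood at 127 against 52.3 FPKM (1.26) and at 138 against 64.4 FPKM (1.09). The stress protein RD29A stood at 17.4 against 8.03 FPKM (1.03), just past 2-fold. RD26, a NAC factor at 0.97 (1.04 with library totals made equal), and NCED3, the key enzyme of abscisic acid synthesis at 0.88, lay just short of it. MYB96, a regulator of wax formation that this hormone is known to induce, was the only 1 of 18 epidermis and wax genes past 2-fold, at 52.1 against 19.6 FPKM (1.36). Jasmonate genes had a median of 0.07, with JAZ1 at 0.91 and none of 19 past 2-fold.

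**Figure D2:**
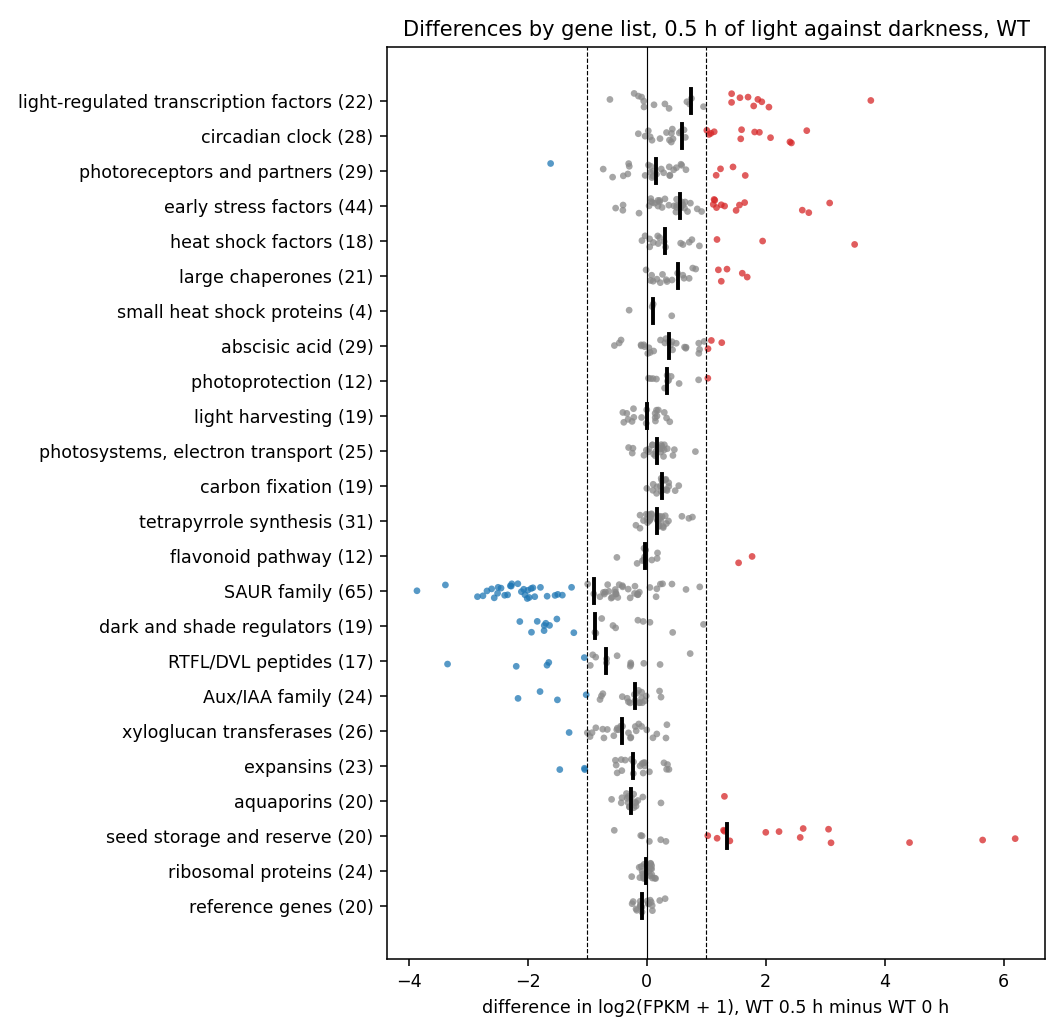
Differences in log2(FPKM + 1) between 0.5 h of light and 0 h in WT for 24 gene lists, 1 point per gene compared (number in brackets), with vertical jitter only to part the points. Black bars are medians, dashed lines 2-fold, and red and blue points lie beyond them; light, clock and stress lists sit to the right, SAUR and dark or shade lists to the left, and ribosomal protein and reference genes around 0.

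The photosynthetic apparatus differed little after 0.5 h. Of 19 light-harvesting genes none was past 2-fold, and the median was 0.00. LHCB1.2, an antenna protein of photosystem II, stood at 162 FPKM at 0.5 h and 214 FPKM at 0 h (-0.40), and LHCB2.1 at 86.5 against 65.9 FPKM (0.39). LHCB1 copies are near-identical, so their separate values are uncertain. In the list of 25 nuclear photosystem and electron transport genes none was past 2-fold and the median was 0.175, with the ferredoxin FD1 at 182 against 103 FPKM (0.82). All 19 carbon fixation genes lay above 0, none past 2-fold, with a median of 0.26. RBCS1A, a small subunit of Rubisco, stood at 2106 against 1630 FPKM (0.37), and GAPA, a subunit of glyceraldehyde-3-phosphate dehydrogenase, at 156 against 112 FPKM (0.48). Scaling moved these medians little. The light-harvesting one ran from -0.01 under median-ratio scaling to 0.07 with library totals made equal. Under median-ratio scaling 18 of the 19 carbon fixation genes lay above 0. In RNAi-21 the medians of the same step were below 0. They were -0.36 for light harvesting, -0.23 for photosystems and electron transport and -0.10 for carbon fixation.

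Chlorophyll and photoprotection genes differed by small amounts, mostly upwards. None of 31 tetrapyrrole genes was past 2-fold, 26 lay above 0 and the median was 0.18. The chlorophyllide a oxygenase CH1 stood at 23.2 against 13.2 FPKM (0.77), the Mg-chelatase subunit CHLH at 34.8 against 20.9 FPKM (0.71) and its activator GUN4 at 17 against 10.9 FPKM (0.59). All 12 photoprotection genes of the ELIP, OHP and LIL families and their functional relatives lay above 0, with a median of 0.35. ELIP2 was the only one past 2-fold, at 32.6 against 15.5 FPKM (1.03), and ELIP1 stood at 27.7 against 14.7 FPKM (0.87). At 2 h these early light-inducible transcripts stood at 483 and 616 FPKM. None of 14 carotenoid genes was past 2-fold, and PSY, the first enzyme of that pathway, was at 0.54.

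Of 23 listed flavonoid genes 12 reached the filter, and 2 of these were 2-fold higher, against 0.851% of all genes compared: the glucosyltransferase UGT78D2, at 10.8 FPKM at 0.5 h and 2.47 FPKM at 0 h (1.77), and the flavanone hydroxylase F3H, at 5.81 against 1.33 FPKM (1.55). Chalcone synthase CHS, the entry enzyme, stood at 1.96 against 1.61 FPKM (0.18), and the list's median was -0.03, or 0.03 with library totals made equal. The ABC family gene ABCI21 stood at 72.4 against 9.22 FPKM (2.84). DOGT1, a glucosyltransferase acting on brassinosteroids and a fungal toxin, stood at 13.4 against 1.05 FPKM (2.81).

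**Figure D3:**
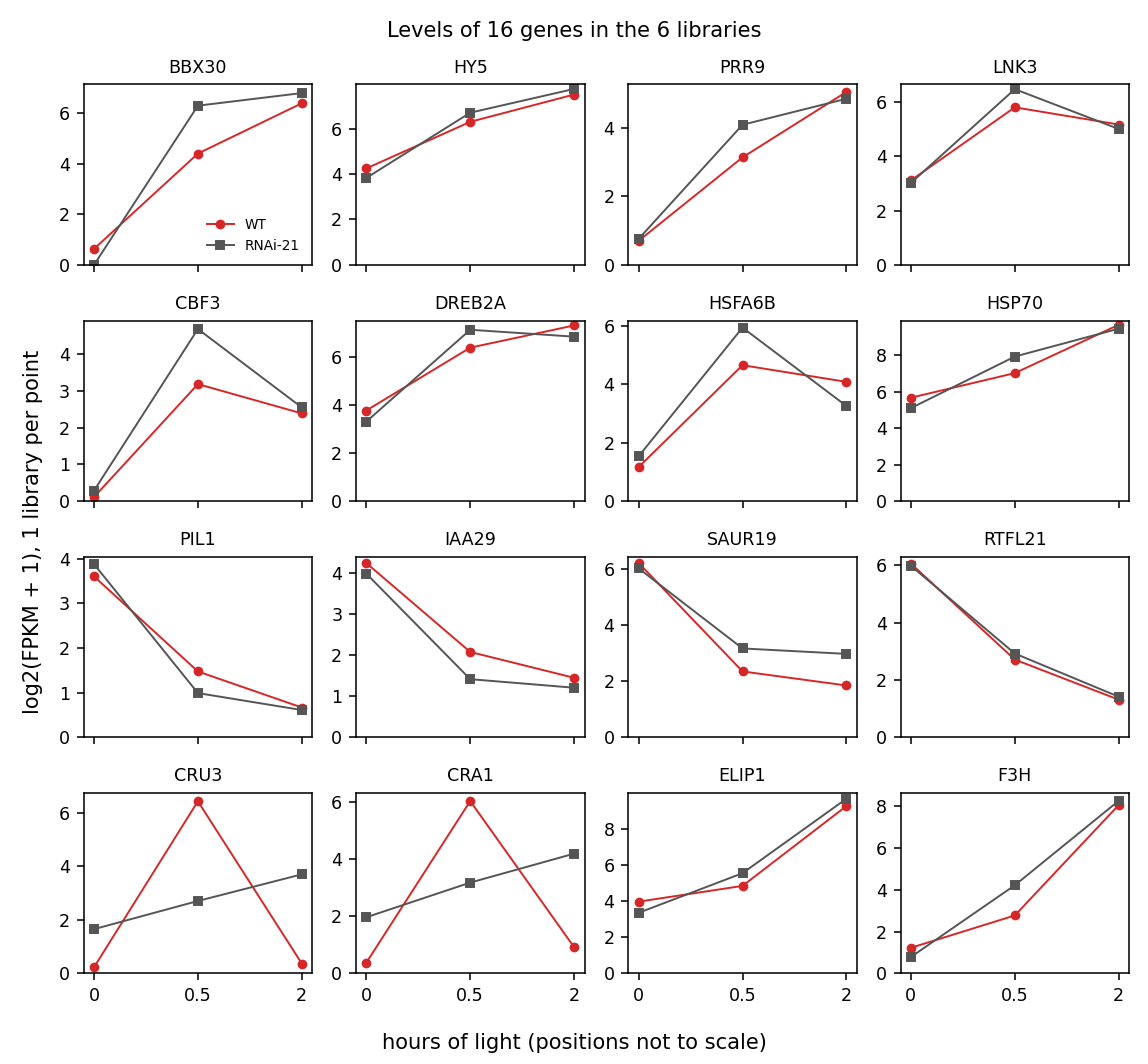
Levels in log2(FPKM + 1) of 16 named genes at 0, 0.5 and 2 h of light, WT in red circles and RNAi-21 in grey squares, 1 library per point, with vertical axes that start at 0 and differ between panels. CBF3 and HSFA6B were highest at 0.5 h in WT, HY5 and ELIP1 were highest at 2 h, and the storage protein genes CRU3 and CRA1 were high in WT in the 0.5 h library alone.

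Regulators that are active in darkness or shade were lower after 0.5 h. Of 19 compared, 9 were 2-fold lower and none higher, against 1.14% lower among all genes compared, and the median was -0.87. PIL1, a bHLH protein that phytochrome turns down quickly, stood at 1.78 FPKM at 0.5 h and 11.2 FPKM at 0 h (-2.13). The HD-ZIP factors of shade avoidance ATHB2 and HAT1 stood at 16 against 64.2 FPKM (-1.94) and at 13.1 against 49.3 FPKM (-1.84). Small HLH proteins without DNA binding were lower with them: PAR1 stood at 11.8 against 41.4 FPKM (-1.72), KDR at 19.2 against 65.8 FPKM (-1.72) and PRE1 at 4.44 against 16.6 FPKM (-1.70). In bulk RNA, fewer cells of a type and less RNA per cell cannot be told apart, here or in any result above or below. The member farthest above 0, named after its value was seen, was BBX28, also in the light list, at 0.95, or 1.03 with library totals made equal.

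The list with the most lower genes was the SAUR family, short proteins of which some promote cell expansion by activating plasma membrane proton pumps. Of 65 compared, 31 were 2-fold lower, against 1.14% of all genes compared, and none higher. Of the 65, 57 lay below 0 and the median was -0.89. It was -1.70 with a pseudocount of 0.1 and -1.94 over the 45 members that reached 5 FPKM. Their summed level was 585 FPKM at 0.5 h, 1404 FPKM at 0 h and 651 FPKM at 2 h. SAUR19 stood at 4.07 against 72.7 FPKM (-3.86), SAUR22 at 2.90 against 39.7 FPKM (-3.38), SAUR23 at 3.97 against 34.7 FPKM (-2.84) and SAUR21 at 7.34 against 55.2 FPKM (-2.75). SAUR25 stood at 1.29 against 13.7 FPKM (-2.69), and AT1G29490, listed with the synonym SAUR68, at 0.92 against 10.7 FPKM (-2.61). The members past 2-fold among the 15 lowest genes with a symbol were, besides these, SAUR26, SAUR24, SAUR28, SAUR20, SAUR27 and SAUR63, at -2.50, -2.39, -2.34, -2.29, -2.07 and -2.01. SAUR7, without a symbol of its own in the table, was at -2.56. Of the 8 members above 0, SAUR35 differed most, at 2.52 against 0.90 FPKM (0.89), and was named after its value was seen.

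Most SAUR genes that were lower sat side by side in the genome. Taking as a run those family members with at most 2 other listed loci between neighbours, 9 runs held 35 of the compared genes, 24 of them 2-fold lower with a median of -2.01. Outside runs, 7 of 30 were 2-fold lower and the median was -0.52. The run on chromosome 5 from SAUR19 to SAUR24 was lower in all 6 genes, by -2.29 to -3.86, with a sum of 30.1 FPKM at 0.5 h against 271 FPKM at 0 h. On chromosome 3 the run of SAUR26 to SAUR29 was lower in all 4 (-1.88 to -2.50, sum 13.1 against 73.9 FPKM). On chromosome 1, 7 of the 8 genes of the run from AT1G29420 to AT1G29510 were 2-fold lower, SAUR61 being the exception at -0.20. Copies within such runs may be alike in sequence and share reads, which was not tested, so the sums are safer than the single values. AT5G18015, annotated as a tRNA gene and lying inside the chromosome 5 run, was listed at 0.26 against 11.2 FPKM (-3.27). Whether it shares reads with the neighbouring SAUR genes was not tested.

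**Figure D4:**
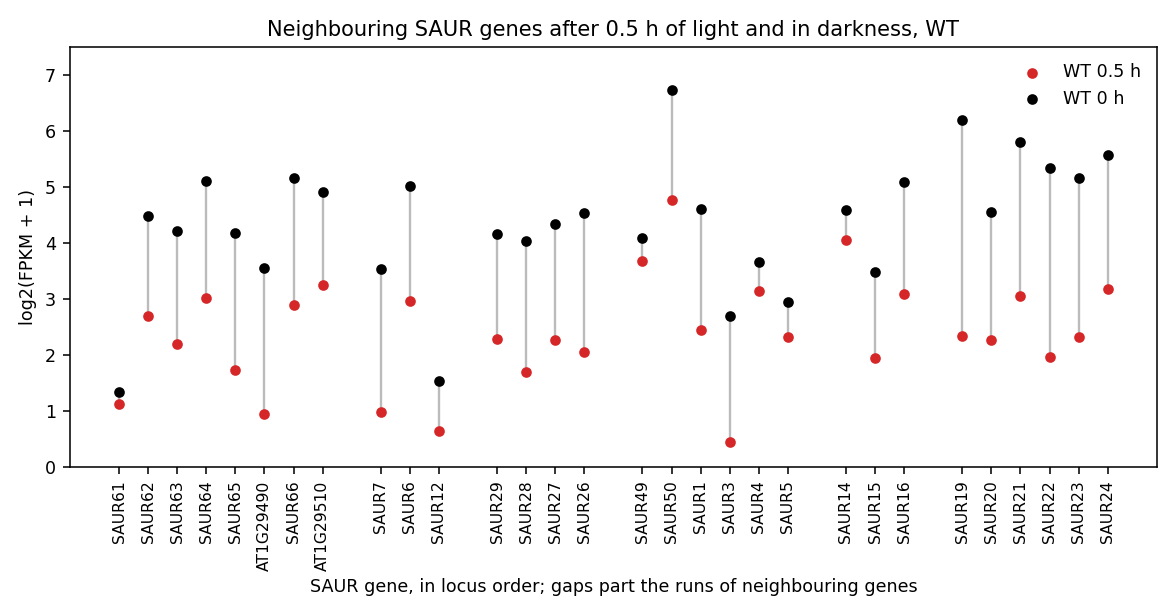
Levels in log2(FPKM + 1) of SAUR genes in the 6 runs of 3 or more neighbours, WT at 0.5 h of light in red and WT at 0 h in black, joined by a grey line per gene, with genes in locus order and gaps between runs. Every red point lies below its black one; the drop is shortest for SAUR61, at -0.20, and longest for SAUR19, at -3.86.

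Other growth genes were lower to a smaller extent. Among 17 RTFL/DVL genes, which encode small peptides that alter organ shape when overexpressed, 5 were 2-fold lower, against 1.14% of all genes compared. Their median was -0.68. RTFL21 stood at 5.53 FPKM at 0.5 h and 65.5 FPKM at 0 h (-3.35), RTFL13 at 1.23 against 9.19 FPKM (-2.19), and RTFL16, a more abundant member, at 53.4 against 112 FPKM (-1.05, or -0.98 with library totals made equal). Of 24 Aux/IAA genes, repressors of auxin response that auxin itself induces, 4 were 2-fold lower, against 1.14% of all genes compared. Of the 24, 22 lay below 0, with a median of -0.20. IAA29 stood at 3.21 against 17.9 FPKM (-2.16), IAA19 at 40.1 against 141 FPKM (-1.79), IAA6 at 6.02 against 18.9 FPKM (-1.5) and IAA3 at 43.5 against 89.0 FPKM (-1.02, or -0.94 with library totals made equal). None of 22 auxin conjugation and transport genes was past 2-fold, though 19 lay below 0, led by GH3.17 at -0.82.

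Cell wall genes lay below 0 in most cases, with few past 2-fold. Over all genes compared, 0.851% were 2-fold higher and 1.14% were 2-fold lower. Of 26 xyloglucan transferases, enzymes that cut and rejoin wall xyloglucan, 21 lay below 0, the median was -0.42 and XTH30 alone was 2-fold lower, at 201 FPKM at 0.5 h and 499 FPKM at 0 h (-1.30). XTH16 lay just short of it, at 13.9 against 28.8 FPKM, and just past it under median-ratio scaling (-1.01). Of 23 expansins, which loosen walls, 3 were 2-fold lower: EXLA2 (14.0 against 40.4 FPKM, -1.46), EXPB1 (9.31 against 20.3 FPKM, -1.05) and EXPA8 (81.2 against 168 FPKM, -1.04). With library totals made equal EXLA2 alone was past 2-fold. Among 20 aquaporins 18 lay below 0 with a median of -0.27, and TIP2;1, a vacuolar water channel, stood at 2547 against 3834 FPKM (-0.59). The 1 aquaporin past 2-fold, TIP3;1, also in the seed list, stood at 3.98 against 1.01 FPKM (1.31). None of 15 tubulins was past 2-fold.

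Some genes of gibberellin and ethylene synthesis were lower. GA20OX1, an enzyme of gibberellin synthesis, stood at 0.61 against 6.39 FPKM (-2.20), GA3OX1, the enzyme of the final step, at 3.69 against 9.61 FPKM (-1.18) and the DELLA repressor GAI at 14.3 against 37.1 FPKM (-1.32). These were the 3 of 31 gibberellin and brassinosteroid genes past 2-fold, against 1.14% lower among all genes compared. In the ethylene list 4 of 22 were 2-fold lower, against 1.14% of all genes compared. Among them were the ethylene precursor enzymes ACS5 (2.73 against 9.44 FPKM, -1.48) and ACS8 (0.12 against 1.37 FPKM, -1.08). The others were the organ size gene ARGOS (9.78 against 24.1 FPKM, -1.22) and HLS1, needed for the apical hook (3.52 against 8.14 FPKM, -1.01, or -0.95 with library totals made equal). The ethylene list's median was 0.08. EXO, a brassinosteroid-responsive growth gene kept in the dark starvation and sugar list, stood at 61.9 against 177 FPKM (-1.5) and was the only 1 of 28 in that list past 2-fold. SMR1, an inhibitor of the cell cycle, stood at 16.4 against 42.6 FPKM (-1.32), the only 1 of 19 cell cycle genes past 2-fold.

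Seed storage protein genes had the highest differences of all genes with a symbol, and among the WT libraries they were high at 0.5 h alone. Of 20 seed storage and reserve genes compared, 14 were 2-fold higher, against 0.851% of all genes compared, and none lower. The median was 1.35, or 2.42 with a pseudocount of 0.1. Most of the 14, CRU3 and CRA1 among them, were below 1 FPKM at 0 h. They passed the filter only through the 0.5 h library, so their differences could only lie above 0. CRU3, CRA1 and CRU2, the globulins that store nitrogen in seeds, stood at 84.7, 63.9 and 7.68 FPKM at 0.5 h and at 0.17, 0.29 and 0.01 FPKM at 0 h, differences of 6.19, 5.65 and 3.1. The albumins SESA5, SESA2 and SESA3 stood at 24.0, 7.92 and 6.01 FPKM against 0.17, 0.07 and 0.13 FPKM (4.42, 3.06 and 2.63), and OLEO1, a coat protein of seed oil bodies, at 9.34 against 0.73 FPKM (2.58). Over the 7 storage protein genes the sum was 1.09 FPKM at 0 h, 198 FPKM at 0.5 h and 2.94 FPKM at 2 h in WT, and 8.15, 23.0 and 40.4 FPKM at the same times in RNAi-21. The 5 oil body genes summed to 42.5, 62.2 and 12.7 FPKM in WT and to 40.9, 38.8 and 23.2 FPKM in RNAi-21. OLEO3 differed by -0.08 and EM6, a protein of late seed maturation, by -0.54, both named after their values were seen. Of the 17 reserve mobilisation genes, which break down seed oil in the young seedling, none was past 2-fold and the median was 0.08. The part of seed material in the 0.5 h sample in these values was not tested.

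Several genes outside the lists were, like the storage genes, high at 0.5 h alone among the WT libraries. GASA2, a small cysteine-rich peptide of the GAST1 family, stood at 6.50 FPKM at 0.5 h and was listed at 0 at 0 h and 2 h in WT. AT3G25880 stood at 41.3 FPKM at 0.5 h, AT2G05580 at 9.62 FPKM and AT5G35660 at 29.4 FPKM, and all 3 were listed at 0 at 0 h. At 2 h in WT they stood at 0, 0 and 1.05 FPKM. AT1G68250 stood at 12.5 against 0.05 FPKM (3.69). In the other direction RKD1, a factor known from egg cells, was listed at 0 at 0.5 h against 17.4 FPKM at 0 h, and at 0 in the 4 other libraries. Leaving out the seed list, 137 genes were 2-fold higher and 202 lower among 17728 compared. These counts still hold genes of the same pattern outside that list, such as PAP85 (0.18, 3.06 and 0.43 FPKM at 0, 0.5 and 2 h in WT). Of the higher genes, 41 were not 2-fold higher in RNAi-21, and 10 of these were in the seed list. Of the 41, 26 were below 1 FPKM at 0 h in WT and passed the filter only through the 0.5 h library. The 41 had median levels of 0.72, 4.77 and 0.74 FPKM at 0, 0.5 and 2 h in WT. They were picked by their 0 h and 0.5 h values, so the rise between these follows from the choice. A lower level at 2 h can follow from it as well.

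Genes 2-fold higher or lower had shorter spans, by median, than all genes compared. The median gene span was 1739 bases for the 149 higher genes with a span, 1464 bases for the 193 lower ones and 2409 bases for all 17598 compared genes that have one. Of the 202 lower genes 36 stood directly beside another lower gene in the order of listed loci, and of the 151 higher genes 14 stood beside another higher one. Most of these 36 were SAUR genes of the runs described above. The share expected over all listed loci was not computed. Nearly all genes 2-fold higher or lower encode proteins, 145 of the higher and 188 of the lower. The median level of the higher genes was 2.64 FPKM at 0 h, 13.8 FPKM at 0.5 h and 27.3 FPKM at 2 h, and that of the lower genes 16.9, 4.43 and 3.09 FPKM. No organelle-encoded gene among 32 compared was 2-fold higher, and 3 were 2-fold lower, against 1.14% of all genes compared. The 3 were ATMG00640, ATMG00580 and ATCG00010, which differed by -0.02, -0.24 and 0.49 in RNAi-21. The median difference of the 32 in WT was -0.33. Organelle-encoded genes made up only 0.26% of summed FPKM at WT 0 h and 0.22% at WT 0.5 h.

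Genes just inside and just outside 2-fold, named after their values were seen, with at least 5 FPKM in either library, show what the threshold parts. NAC102, a stress-related NAC factor, stood at 170 against 84.3 FPKM (1.00) and counted as higher, while DIC2, a mitochondrial carrier, stood at 10.4 against 4.80 FPKM (0.97) and did not. On the lower side LNG2, which shapes cell elongation, stood at 17.7 against 36.6 FPKM (-1.01) and counted, while XTH16 did not.

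The same 0.5 h step in RNAi-21 rests on 2 other libraries and gave more genes higher and fewer lower. There, 329 of 17734 genes (1.86%) were higher by 2-fold or more and 167 (0.942%) were lower by as much. Of the 151 genes higher in WT, 110 were also 2-fold higher there, and of the 202 lower in WT, 111 were also 2-fold lower. All 9 light factors and all 12 clock genes past 2-fold in WT were past it in RNAi-21 too. So were 30 of the 31 SAUR genes, 8 of the 12 early stress factors, all 3 heat shock factors and all 5 chaperones. The early stress factors that were not, named outside the rule, lay just short of it. SZF1, WRKY40, ERF5 and WRKY33 differed by 0.97, 0.96, 0.93 and 0.92 in RNAi-21. Of the 14 seed list genes past 2-fold in WT, 4 were past it in RNAi-21. BBX30 stood at 77.3 FPKM at 0.5 h and was listed at 0 at 0 h in RNAi-21. HSFA6B differed by 3.5 in WT and by 4.41 in RNAi-21, DREB2A by 2.62 in WT and 3.82 in RNAi-21, SAUR19 by -3.86 in WT and -2.85 in RNAi-21, and PIL1 by -2.13 in WT and -2.89 in RNAi-21. No difference between the genotypes was tested, since each side is 1 library.

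**Figure D5:**
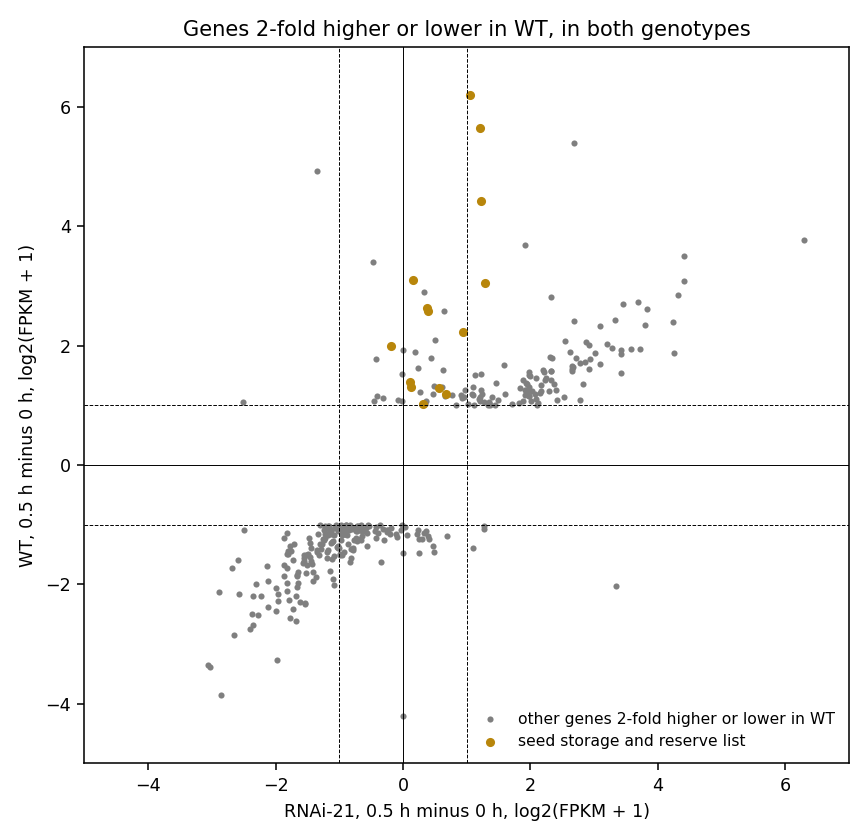
The 353 genes at least 2-fold higher or lower in WT, with the difference at 0.5 h minus 0 h in WT (vertical axis) against that in RNAi-21 (horizontal axis), both in log2(FPKM + 1); dashed lines mark 2-fold. Seed list genes, in gold, lie high in WT (1.03 to 6.19) and between -0.19 and 1.28 in RNAi-21.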

How the data were processed

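Total RNA was extracted with TRIzol and standard Illumina libraries were made, per the labels' protocols. The submitters' processing notes name HISAT and Bowtie2, with no version. How values were quantified, and on which build and annotation, is not given in the sources used here. Values deposited by the authors were taken to be FPKM. No header or label names the unit, which was inferred from the values and from locus names of the Cufflinks type, and TPM of a part of the genes could not be told apart from it. FPKM summed to 829043 at WT 0 h and 787502 at WT 0.5 h, and to between 757504 and 891009 over all 6 libraries. Read depth is unknown: in 717 genes below 0.5 FPKM in both WT libraries, ratios between libraries showed no whole-read steps, with at most 1.26% in any interval of 1% width.

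Differences were computed with Python 3.11.15, pandas 2.3.3 and numpy 2.4.6 as log2(FPKM + 1), over genes of at least 1 FPKM in either library, and the code was tested on simulated data. Sizes of 2-fold or more were counted, with no test. Names came from the RefSeq TAIR10.1 table, which matched 19532 of 19763 identifiers and gave 8494 symbols. It was used for names, gene types, gene spans and gene order only. The 46 gene lists hold 1003 listed genes, 938 of them compared. Members and lists were chosen with earlier results of these data known, and symbols shared by unrelated genes were removed by hand. Genes named were the 15 highest and 15 lowest with a symbol and at least 5 FPKM in either library, the 5 highest and 5 lowest without a symbol, and up to 6 members of each list with the largest differences. Others are said to be outside this rule. Alternatives were a smaller pseudocount (0.1), a filter of 5 FPKM or none, median-ratio scaling, equal totals without organelle genes, and a 4-fold threshold. Leaving out the seed list was added after seeing the data.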

Additional observations from a re-analysis of the deposited data

Results flagged for a closer look

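Over the first 0.5 h of light the WT and RNAi-21 values had opposite signs for 12 of 46 list medians, 2 of them with at least 0.1 in size on each side, and for 2 of the 40 genes named by size alone. The same held for 11 of the 151 genes 2-fold higher in WT and 18 of the 202 lower. None of these differences was tested, since each side is 1 library. The median of the photosystem and electron transport list was 0.175 in WT and -0.23 in RNAi-21. The median of the small nuclear RNA list was 0.134 in WT and -0.34 in RNAi-21, over 7 genes. AT5G35660 was higher by 4.92 in WT, at 29.4 FPKM at 0.5 h and listed at 0 at 0 h, and differed by -1.35 in RNAi-21, at 3.90 FPKM at 0.5 h and 11.5 FPKM at 0 h. AT2G05580 was higher by 3.41 in WT, at 9.62 FPKM at 0.5 h and listed at 0 at 0 h, and differed by -0.48 in RNAi-21, at 0.81 FPKM at 0.5 h and 1.52 FPKM at 0 h.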

How the results depend on the processing

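The counts of 151 higher and 202 lower genes became 267 and 343 with a pseudocount of 0.1, and 33 and 32 past 4-fold. They stayed within 1.5 times under no filter (151 and 202), a filter of 5 FPKM (116 and 164), median-ratio scaling (149 and 208), equal totals without organelle genes (165 and 169) and without the seed list (137 and 202). The 2 scaling factors amounted to 0.01 and 0.07 on the log2 scale before the pseudocount was added. Of 46 list medians, 7 changed sign under some setting, 6 of them within 0.07 of 0 under every setting that did so, and the small heat shock proteins to -0.295 with a filter of 5 FPKM, which left 1 gene. Of the others, 3 moved by over 0.25: the SAUR median to -1.70 (pseudocount of 0.1) and -1.94 (filter of 5 FPKM), the seed median to 2.42 and 1.76, and the heat shock factor median to 0.57 (filter of 5 FPKM). A pseudocount of 0.1 moved 31 of the 40 genes named without regard to a list by over 0.25, none across 0. No paired analysis was possible because each group holds 1 library. Depth is unknown, so low values carry an error that cannot be stated.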
